A study of Mus musculus with 2 samples.

Results

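The nuclear genes of respiratory complex I were examined in wild-type mouse bone marrow cells that had been cultured with macrophage colony-stimulating factor (M-CSF) alone (M) or with M-CSF and receptor activator of NF-κB ligand (RANKL) (MR). RANKL is the cytokine that drives macrophage-lineage precursors to become osteoclasts, the multinucleated cells that resorb bone, and M-CSF keeps these precursors alive and dividing. The genes were chosen by name as all protein-coding symbols of the GENCODE vM21 annotation that begin with Nduf, which gave 46 of 21951 protein-coding genes. Both cultures had M-CSF, and the labels give 2 days with M-CSF followed by 2 days in which M-CSF and RANKL were added. The labels state this protocol for both libraries, the general culture method of the study gives a longer second step, and the day on which RNA was taken for sequencing is not named. RNA was measured by RNA-seq in 2 libraries, 1 per condition, so that no replicate error and no p-value could be given, and each difference describes these libraries only. Values are TPM, the relative transcript abundance given by StringTie, a level that is scaled for transcript length and library, and differences are log2 ratios of MR to M after 1 was added to each TPM.

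Complex I, or NADH:ubiquinone oxidoreductase, is the entry point of the mitochondrial respiratory chain for electrons from NADH. Its matrix arm takes electrons from NADH at the N module and passes them along iron-sulfur clusters to ubiquinone at the Q module, and its membrane arm uses the energy released to pump protons across the inner membrane. The catalytic core subunits of the matrix arm are encoded in the nucleus, those of the membrane arm in mitochondrial DNA, and nuclear accessory subunits surround both arms. Assembly factors, many of them named Ndufaf, build the arms and leave the finished complex. Osteoclasts are cells rich in mitochondria, because bone resorption requires energy for acid secretion.

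Sequencing depth, as aligned bases behind the FPKM values, was 3.63 Gb for M and 2.98 Gb for MR. The assembled loci given to vM21 genes carried 92.7% of the TPM in M and 93.2% in MR. Osteoclast markers were higher in the library labelled MR. The summed level of 6 osteoclast markers was 105 TPM in M and 18712 TPM in MR. In M, 4 of them had no assembled locus given to them and were taken as 0, and in MR none. A level of 0 has this meaning for the other markers too. The summed level of 6 macrophage and monocyte markers was 20246 TPM in M and 7890 TPM in MR, with 5 of the 6 lower in MR. Most of this sum was Lyz2, at 16035 TPM in M and 4535 TPM in MR, whose locus also covered another coding gene. The median log2 ratio of the 6 was -0.61, and Csf1r was higher in MR, at 697 TPM in M and 872 TPM in MR. The 7 neutrophil markers summed to 1358 TPM in M and 950 TPM in MR, and the erythroid, lymphoid, stromal, and mast cell and basophil lists to at most 24.6 TPM in either library, with 2 of 3 erythroid markers at 0 in both and all 3 mast cell and basophil markers at 0 in MR. The 8 housekeeping genes with a value, one of them the complex II gene Sdha, summed to 2459 TPM in M and 4128 TPM in MR, with 6 of them higher in MR and a median log2 ratio of 0.58. The part that these shifts in cell markers and housekeeping genes have in the levels of the Nduf genes was not tested. In bulk RNA, fewer cells of a type and less RNA per cell cannot be told apart.

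Of the 46 Nduf genes, 44 had a value, 42 of them higher in MR than in M and 2 lower. The log2 ratio was above 1 in 24 of the 44 (54.5%) and below -1 in none. Of the 11923 protein-coding genes that reached 1 TPM in M or MR, 19.2% exceeded a log2 ratio of 1, 11.5% were below -1 and 59.6% were higher in MR. The median log2 ratio was 1.02 over the Nduf genes and 0.19 over these protein-coding genes. Together the 44 genes made up 4298 TPM in M and 9241 TPM in MR, or 0.43% and 0.92% of all assembled transcripts. The 2 genes without a value were Ndufa4l2 and Ndufb9. Ndufa4l2, a paralogue of Ndufa4 known for its induction by low oxygen, had no assembled locus in either library and was taken as 0. Ndufb9, a subunit of the distal membrane arm, lay inside a joint locus in M. That joint locus of Ndufb9 and Rnf139 had 150 TPM in M, whereas Ndufb9 had a locus of its own, which also covers Gm49356, with 396 TPM in MR, and these values are not comparable.

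**Figure D1:**
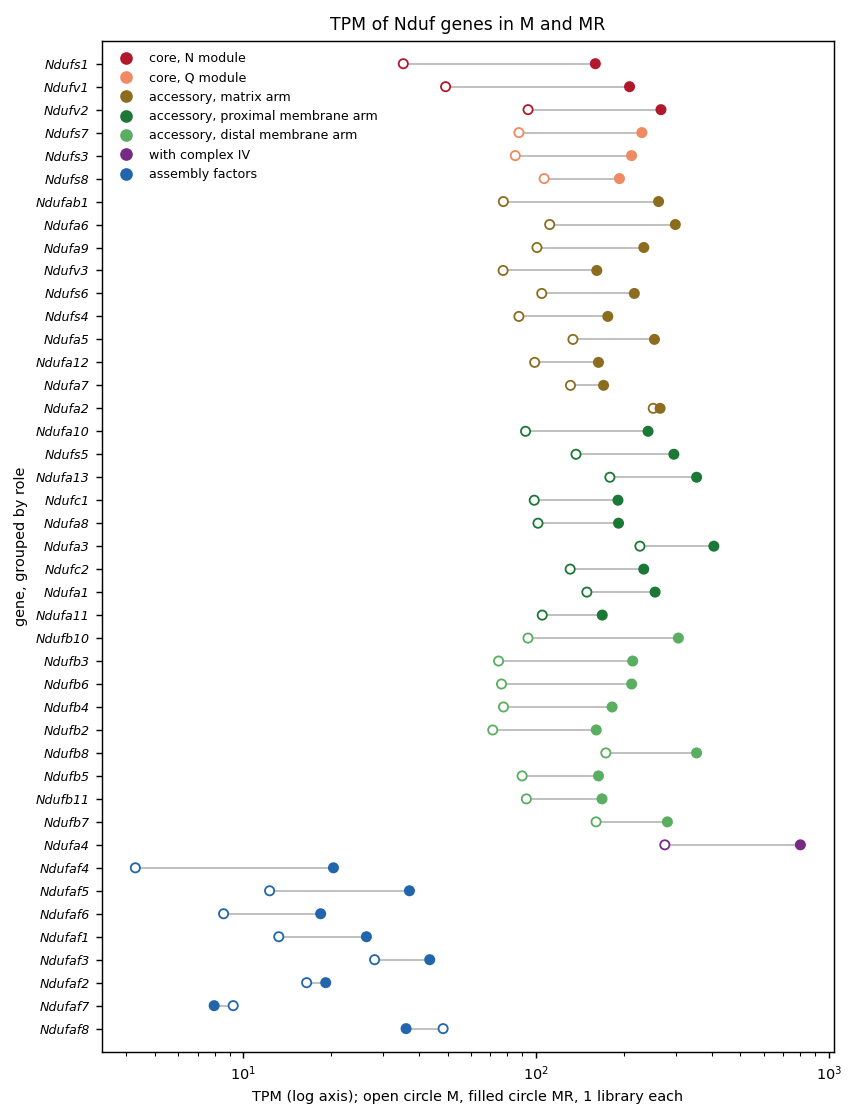
TPM of 43 Nduf genes in M (open circles) and MR (filled circles) on a log axis, grouped and coloured by role, 1 library each. The filled circle lies to the right of the open circle for 41 genes and to its left for Ndufaf7 and Ndufaf8, and the assembly factors lie at lower levels than the subunits.

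The subunits stood far above the assembly factors in level. The 35 subunits of complex I ranged from 35.3 TPM (Ndufs1) to 252 TPM (Ndufa2) in M, with a median of 99.1, and from 160 TPM (Ndufs1) to 406 TPM (Ndufa3) in MR, with a median of 217. The 8 assembly factors had medians of 12.8 and 23.4 TPM. Subunit levels were more alike in MR than in M. The highest subunit was 7.14 times the lowest in M and 2.54 times in MR, and the SD of the log2 levels over the subunits was 0.56 in M and 0.38 in MR. In TPM all 35 subunits were higher in MR, 20 of them (57.1%) with a log2 ratio above 1, and their median log2 ratio was 1.04. Over protein-coding genes, 59.6% were higher in MR and 19.2% were above 1. Ndufa12, Ndufs4 and Ndufs8 were lower in coverage per aligned Gb, and Ndufa2 was lower with median-of-ratios scaling.

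The highest log2 ratios among the subunits were those of Ndufs1 and Ndufv1, core genes of the N module, the part of the matrix arm that oxidises NADH. The module was not alike throughout, since its accessory subunit Ndufa2 had a log2 ratio of 0.08. Ndufs1, the largest subunit and the carrier of several iron-sulfur clusters, was at 35.3 TPM in M and 160 TPM in MR, with a log2 ratio of 2.15. Ndufv1, which binds FMN and NADH and receives the electrons first, was at 49.2 TPM in M and 209 TPM in MR, with a log2 ratio of 2.06. These were the lowest and the second lowest of the 35 subunit levels in M. In MR, Ndufs1 was still the lowest and Ndufv1 ranked 14th from the lowest. Ndufv2, which holds an iron-sulfur cluster beside the FMN, was at 94.1 TPM in M and 268 TPM in MR. Its log2 ratio of 1.50 was below those of the accessory subunits Ndufab1 (1.75) and Ndufb10 (1.70). From the estimated read pairs of each library, the 95% Wilson intervals of the log2 ratio were 2.01 to 2.29 for Ndufs1, 1.90 to 2.23 for Ndufv1 and 1.34 to 1.65 for Ndufv2. The intervals cover counting error only and leave out any difference between cultures of 1 kind.

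The Q module, where ubiquinone is reduced, was also higher in MR. Ndufs7, which carries the last iron-sulfur cluster of the chain, was at 87.6 TPM in M and 230 TPM in MR, a log2 ratio of 1.38. Ndufs3, a core subunit without a cluster, was at 85.1 TPM in M and 212 TPM in MR, a log2 ratio of 1.31. Ndufs8, which holds iron-sulfur clusters that pass electrons towards Ndufs7, had a smaller difference. It was at 107 TPM in M and 193 TPM in MR, with a log2 ratio of 0.85 and a counting interval of 0.68 to 1.02. The listed coverage of Ndufs8 per aligned Gb did not show this difference, with a log2 ratio of -0.01. Over the 7 core subunits of both modules the median log2 ratio was 1.50, and over the 28 accessory subunits it was 0.99.

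Accessory subunits of the matrix arm spanned the widest range among the structural groups, from 0.08 to 1.75 on the log2 scale. Above 1 were 6 of 10 (60%), beside 19.2% of protein-coding genes. Ndufab1, the mitochondrial acyl carrier protein, which also serves fatty acid synthesis, was at 77.5 TPM in M and 263 TPM in MR, with a log2 ratio of 1.75, although by coverage its log2 ratio was only 0.46. Its locus covered 62.2% of the annotated exon bases in M and 99.5% in MR. Ndufa6, which docks the acyl carrier protein, was at 112 TPM in M and 300 TPM in MR, with a log2 ratio of 1.42. Ndufa9, a nucleotide-binding subunit at the junction with the membrane arm, was at 101 TPM in M and 234 TPM in MR, with a log2 ratio of 1.20. Ndufab1 and its dock Ndufa6 thus had the highest accessory ratios of the matrix arm. Ndufab1, Ndufs6, Ndufb4 and Ndufa11 have annotated pseudogenes, and reads of near-identical copies may have been divided between them, so that the values of these 4 genes are uncertain to that extent.

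Subunits that complete the N module were in the middle of this range. Ndufv3 was at 77.3 TPM in M and 162 TPM in MR, with a log2 ratio of 1.05. Ndufs6, a zinc-binding subunit that joins late in assembly, was at 105 TPM in M and 217 TPM in MR, with a log2 ratio of 1.04. Ndufs4, whose loss in mice is a model of Leigh syndrome, was at 87.6 TPM in M and 176 TPM in MR. Its log2 ratio of 1.00046 was just above the threshold of 1, and by coverage it was -0.13, so that the direction for Ndufs4 depended on the unit. Its locus covered 61.8% of the exon bases in M and 89.4% in MR.

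The lowest ratios of any subunit were also in the matrix arm. Ndufa2, a subunit of the N module with a thioredoxin-like fold, had the highest level of all subunits in M and almost the same level in MR, 252 TPM in M and 266 TPM in MR. Its log2 ratio was 0.08 with a counting interval of -0.07 to 0.23, and the value changed sign to -0.09 with median-of-ratios scaling, in which the log2 ratios are centred on the genes present in both libraries. Ndufa7 was at 131 TPM in M and 170 TPM in MR, with a log2 ratio of 0.37. Ndufa5 was at 134 and 254 TPM, a log2 ratio of 0.92. Ndufa12 takes its place in the matrix arm when its paralogue, the assembly factor Ndufaf2, is released. Ndufa12 was at 99.1 TPM in M and 164 TPM in MR, with a log2 ratio of 0.72 in TPM and of -2.59 by coverage, and its locus held under 50% of the exon bases in both libraries. For Ndufa12 the direction therefore also depended on the unit.

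**Figure D2:**
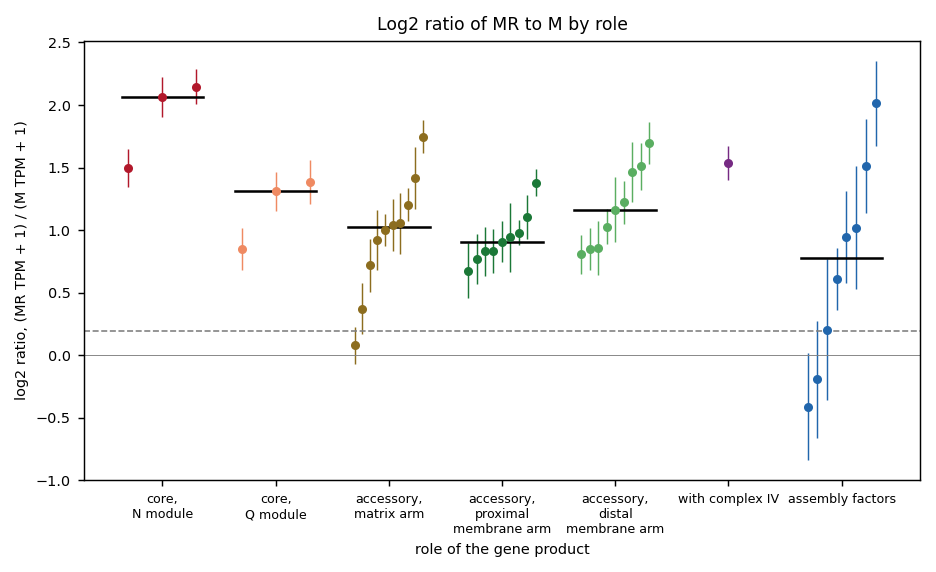
Log2 ratio of MR to M of 43 Nduf genes (points) by role, with the 95% Wilson interval of the estimated read pairs (thin lines, counting error only), the median of the points shown (black bar) and the median of protein-coding genes at 0.19 (dashed line). The N module core has the highest median, 2.06, and the assembly factors the widest spread, from -0.41 to 2.01.

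In the membrane arm, all 18 accessory subunits with a value were higher in MR, by 0.68 to 1.70 on the log2 scale. The proximal part, next to the matrix arm, had a median log2 ratio of 0.91 with 2 of 9 (22.2%) above 1. The distal part had a median of 1.16 with 6 of 9 (66.7%) above 1. Over protein-coding genes, 59.6% were higher in MR and 19.2% were above 1. In the proximal part, Ndufa10, which is related to deoxyribonucleoside kinases, had the highest ratio, with 92.2 TPM in M, 242 TPM in MR and a log2 ratio of 1.38. Ndufs5, a subunit on the intermembrane-space side, was at 137 TPM in M and 296 TPM in MR, with a log2 ratio of 1.10. Ndufa13, known as GRIM-19, was at 179 TPM in M and 354 TPM in MR, just below the threshold with a log2 ratio of 0.98. The remaining members of the proximal part lay between 0.68 and 0.94. Ndufa3, a small membrane subunit, was at 227 TPM in M and 406 TPM in MR, the highest subunit level there, with a log2 ratio of 0.84 in TPM and 0.02 by coverage. Ndufa11, which contacts complex III in supercomplexes, was at 105 and 169 TPM and had the lowest ratio of the membrane arm, 0.68. Ndufa1 was at 149 and 255 TPM with a log2 ratio of 0.77, and Ndufa8 at 102 and 192 TPM with a log2 ratio of 0.91. Ndufc1 was at 98.8 and 191 TPM with a log2 ratio of 0.94, and Ndufc2, at 131 and 234 TPM, had 0.83.

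In the distal part, Ndufb10, an intermembrane-space subunit held by disulfide bonds, was at 94.0 TPM in M and 307 TPM in MR, with a log2 ratio of 1.70. Ndufb3 was at 74.6 TPM in M and 214 TPM in MR (log2 ratio 1.51), and Ndufb6 at 76.4 and 212 TPM (log2 ratio 1.46). Ndufb4 was at 77.6 and 182 TPM (log2 ratio 1.22), and Ndufb2 at 71.3 and 161 TPM (log2 ratio 1.16). Ndufb2, Ndufb3, Ndufb6 and Ndufb4, small proteins of the outer end of the membrane arm, were among the lowest subunit levels in M. Ndufb7, at 161 and 281 TPM, and Ndufb8, at 173 and 354 TPM, started from higher levels, with log2 ratios of 0.81 and 1.03. The locus of Ndufb8 was shared with Gm20538 and covered 96.2% of the Ndufb8 exon bases in M and 47.1% in MR. By coverage the log2 ratio of Ndufb8 was 3.57. Ndufb5 was at 89.8 and 164 TPM (log2 ratio 0.86), and Ndufb11 at 92.8 and 168 TPM (log2 ratio 0.85).

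Across the 35 subunits, those with the lower level in M had the higher ratio. Pearson's r between the log2 level in M and the log2 ratio was -0.72, and Spearman's rho was -0.64. The same values over 11923 protein-coding genes were -0.35 and -0.29. The level in M enters both measures, and genes are not independent replicates, so that these values are descriptions. The ratio was also higher for longer transcripts among the subunits, with r = 0.54 and rho = 0.47 against the log2 transcript length, whereas r was 0.03 over 11915 protein-coding genes. The 3 Nduf genes with transcripts of at least 2000 nt, Ndufs1, Ndufa10 and Ndufaf4, had a median log2 ratio of 2.01, beside 0.21 for the 6616 protein-coding genes of that length. The 12 Nduf genes under 500 nt had a median of 0.93, beside 0.20 for 402 protein-coding genes. The transcripts of the 44 genes had a median length of 745 nt, against 2209 nt for protein-coding genes, and in each of the 5 length classes examined the median of the Nduf genes was above that of protein-coding genes.

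Ndufa4 carries the name of a complex I subunit but is now counted with complex IV, cytochrome c oxidase. It had the highest level of all 44 genes in both libraries, 276 TPM in M and 801 TPM in MR. Its log2 ratio was 1.53, close to the 1.51 of Ndufb3 and below the 2.15 of Ndufs1.

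The 8 assembly factors named Ndufaf differed widely among themselves. Their log2 ratios ranged from -0.41 to 2.01, with a median of 0.78. Of the 8, 6 (75%) were higher and 2 lower in MR, and 3 (37.5%) were above 1. Of protein-coding genes, 59.6% were higher and 19.2% were above 1. Ndufaf4 was at 4.29 TPM in M and 20.4 TPM in MR, with a log2 ratio of 2.01 and a counting interval of 1.67 to 2.35. By coverage its log2 ratio was 1.55. Ndufaf3, which acts together with Ndufaf4 on the Q module, was at 28.1 TPM in M and 43.4 TPM in MR, with a log2 ratio of 0.61. The level of Ndufaf4 was thus below that of Ndufaf3 in both libraries.

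Ndufaf5 and Ndufaf8 also act together, Ndufaf5 as the enzyme that hydroxylates an arginine of Ndufs7 and Ndufaf8 as the protein that stabilises it. Ndufaf5 was at 12.3 TPM in M and 37.0 TPM in MR, with a log2 ratio of 1.51 and a counting interval of 1.14 to 1.89. Ndufaf8 was at 48.2 TPM in M and 36.1 TPM in MR, with a log2 ratio of -0.41, the lowest of the 44 genes, and a counting interval of -0.84 to 0.02. The Ndufaf8 locus covered 57.4% of the exon bases in M and 97.1% in MR. The levels of this pair were apart in M and close in MR, at 37.0 and 36.1 TPM. Ndufaf7, an arginine methyltransferase, was at 9.26 TPM in M and 7.97 TPM in MR, with a log2 ratio of -0.19 and a counting interval of -0.66 to 0.27, so that neither lower ratio was separated from 0 by counting error alone.

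Ndufaf6, which acts early on the Q module, was at 8.58 TPM in M and 18.4 TPM in MR, with a log2 ratio of 1.02. Ndufaf1, which with Ecsit and Acad9 builds the membrane arm, was at 13.2 TPM in M and 26.4 TPM in MR, with a log2 ratio of 0.94. Ndufaf2, the paralogue of Ndufa12, was at 16.5 TPM in M and 19.2 TPM in MR. Its log2 ratio of 0.20 had a counting interval of -0.36 to 0.77 and rested on 51 and 47 read pairs, the fewest of any gene, and by coverage its log2 ratio was 2.84. Over all 44 genes the counting interval lay above 0 for 40, below 0 for none and above 1 for 17. These counts are not given over protein-coding genes, so that they describe the Nduf genes alone.

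Promoters of the Nduf genes were read from RefSeq on GRCm38, as the 250 bases before and 50 bases after each start, and 40 of the 46 genes had 1 or more, 42 promoters in all. NRF1 and YY1 are transcription factors known to act on nuclear genes of the respiratory chain. The letters CGCANGCG, an NRF1 motif, were found on either strand in 15 of the 42 promoters (35.7%), against 16.4% of 12174 promoters of protein-coding genes with a value, 8.21% of all 32851 promoters and 26.7% of 75 promoters of mitochondrial ribosomal protein genes. The letters AANATGGC, a YY1 motif, were in 33.3%, against 8.36%, 6.05% and 28% of these. The 15 promoters with the NRF1 letters belong to 13 genes, since Ndufa5 and Ndufa7 each have 2 overlapping windows that hold the same letters. The Nduf genes with and without the NRF1 letters had similar ratios, and those with the YY1 letters had lower ratios than those without. With the NRF1 letters the median log2 ratio was 1.04 over 13 genes and without them 1.00 over 27. With the YY1 letters it was 0.90 over 14 and without them 1.13 over 26, a difference that was not tested. The GABPA letters CCGGAAGT were in 1 promoter (2.38%, against 8.001% of promoters of protein-coding genes with a value, 3.89% of all promoters and 16% for mitochondrial ribosomal protein genes), that of Ndufs3. The ERR letters TCAAGGTCA were in none. They were also in 0.263% of promoters of protein-coding genes with a value, 0.423% of all promoters and 0% for mitochondrial ribosomal protein genes. Letters this rare give no contrast in 42 promoters. The TATA letters TATAAA were in 5 promoters (11.9%) of 4 genes, since the same letters of Ndufa7 lie in 2 windows. This share was above the 7.12% of promoters of protein-coding genes with a value and the 6.67% for mitochondrial ribosomal protein genes. It was below the 13.6% of all promoters. A match of letters is a description, not a binding site, and no match says only that these letters are not in this window.

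The 150 bases before the outermost annotated start of 5 genes are shown as examples with and without the NRF1 letters, and these genes were chosen after their values were seen. The letters also occur in promoters of genes with low ratios that are not shown, among them Ndufa7 (log2 ratio 0.37) and Ndufaf2 (0.20). Sequences are on the strand of the gene, 5′ to 3′, from GRCm38 positions, and capitals mark the NRF1 letters on either strand. The log2 ratios are 2.06 for Ndufv1, 2.01 for Ndufaf4, 1.22 for Ndufb4, 1.10 for Ndufs5 and -0.41 for Ndufaf8.
Ndufv1, chr19:4012807-4012956, minus strand: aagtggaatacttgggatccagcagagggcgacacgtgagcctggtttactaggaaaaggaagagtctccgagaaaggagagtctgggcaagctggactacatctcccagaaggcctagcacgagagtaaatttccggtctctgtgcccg
Ndufaf4, chr4:24897933-24898082, plus strand: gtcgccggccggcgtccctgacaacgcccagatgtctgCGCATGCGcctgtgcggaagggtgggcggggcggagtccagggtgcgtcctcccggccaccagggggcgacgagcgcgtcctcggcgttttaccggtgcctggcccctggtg
Ndufb4, chr16:37654454-37654603, minus strand: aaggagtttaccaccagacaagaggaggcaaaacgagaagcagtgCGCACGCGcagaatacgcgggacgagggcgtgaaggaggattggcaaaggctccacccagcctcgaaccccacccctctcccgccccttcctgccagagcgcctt
Ndufs5, chr4:123718203-123718352, minus strand: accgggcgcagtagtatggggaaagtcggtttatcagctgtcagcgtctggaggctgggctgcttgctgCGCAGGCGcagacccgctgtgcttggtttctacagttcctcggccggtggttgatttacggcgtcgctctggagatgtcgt
Ndufaf8, chr11:120098778-120098927, plus strand: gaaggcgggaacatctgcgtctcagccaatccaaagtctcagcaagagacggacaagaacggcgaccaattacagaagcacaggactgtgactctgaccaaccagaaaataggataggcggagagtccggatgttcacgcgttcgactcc

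In these windows Ndufaf4, Ndufb4 and Ndufs5 each hold the letters once, and Ndufv1 and Ndufaf8 do not hold them. The promoter of Ndufb4 holds them 3 times in its 300 bases, more than that of any other Nduf gene.

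The Nduf genes lie on 17 chromosomes, with at most 6 on any of them (chromosome 17). Ndufs8 and Ndufv1, 94609 bases apart on chromosome 19, had log2 ratios of 0.85 and 2.06. Some of the genes share a start region with a gene on the other strand. For 17 of the 46, a protein-coding gene starts within 1000 bases upstream in the opposite direction, with an overlap of up to 200 bases allowed. The share of all protein-coding genes with such a partner was not computed, so that 17 of 46 is not a trait of the Nduf genes. In 13 of these pairs both genes had values. The median log2 ratio in these 13 pairs was 1.04 for the Nduf genes and 0.81 for their partners. Of the 13 partners, 12 were higher in MR, beside 59.6% of protein-coding genes. A log2 ratio above 1 was found in 2 (15.4%), near the 19.2% of protein-coding genes. Ndufs1 starts next to Eef1b2, a translation elongation factor gene, which was at 269 TPM in M and 756 TPM in MR, with a log2 ratio of 1.49. Ndufs6 starts next to Mrpl36, a mitochondrial ribosomal protein gene, which was at 30.8 TPM in M and 78.1 TPM in MR, with a log2 ratio of 1.31.

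Other pairs were less alike. Ndufs3 had a log2 ratio of 1.31 and its partner Kbtbd4, at 13.5 TPM in M and 12.4 TPM in MR, had -0.11. Ndufa2 had 0.08, below its partner Ik, a splicing factor gene, at 0.90. Ndufaf8 and Ndufaf7, the 2 genes lower in MR, had partners that were higher, Tepsin with a log2 ratio of 0.35 and Cebpz with 0.57. The Nduf gene had the higher ratio of its pair in 7 of 13. Pearson's r over the 13 pairs was 0.39 and Spearman's rho was 0.48. Strand use in the library preparation is not given in the sources used here, so that reads where such genes overlap cannot be told apart.

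**Figure D3:**
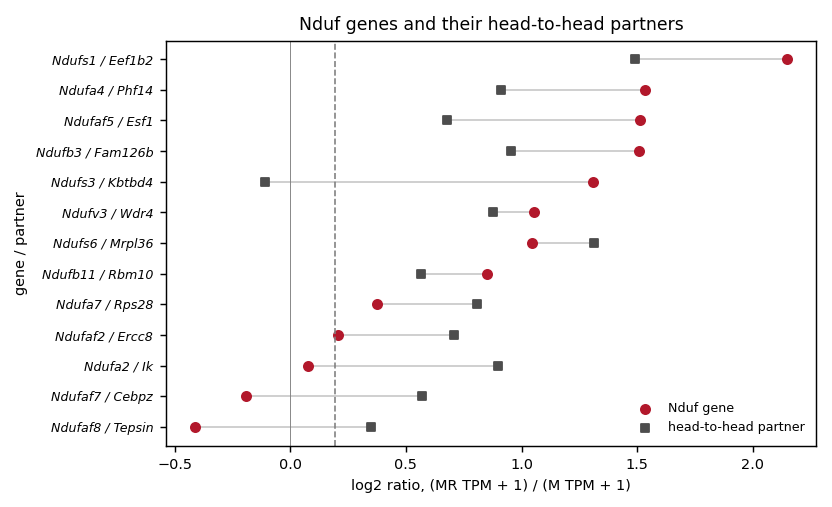
Log2 ratio of MR to M of 13 Nduf genes (red circles) and of the protein-coding genes that start head to head with them (grey squares), with the median of protein-coding genes at 0.19 (dashed line). Partners lie between -0.11 and 1.49, a narrower range than the -0.41 to 2.15 of the Nduf genes.

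The mitochondrially encoded subunits, which form the proton-pumping core of the membrane arm, had higher ratios than the nuclear genes. All 7 had a log2 ratio above 1, beside 19.2% of protein-coding genes, and their median was 2.49. Together they were at 3006 TPM in M and 16579 TPM in MR. The lowest ratio was that of mt-Nd6, at 705 TPM in M and 3142 TPM in MR, with a log2 ratio of 2.15. The highest was that of mt-Nd3, at 83.6 TPM in M and 972 TPM in MR, with a log2 ratio of 3.52. The other ratios were 2.51 for mt-Nd1, 2.74 for mt-Nd2, 2.26 for mt-Nd4, 2.49 for mt-Nd4l and 2.44 for mt-Nd5. Among the nuclear genes only Ndufs1, with 2.15, was about as high as mt-Nd6. Mitochondrial genes lie close together on both strands, and how reads were divided among them is not given.

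Assembly factors that are not named Nduf were as mixed as the Ndufaf genes. Of 13 with a value, 9 (69.2%) were higher in MR, 4 (30.8%) had a log2 ratio above 1 and the median was 0.48. Of protein-coding genes, 59.6% were higher and 19.2% were above 1. Aifm1, an import factor for small mitochondrial proteins, was at 16.6 TPM in M and 58.1 TPM in MR, with a log2 ratio of 1.74. Ecsit, a partner of Ndufaf1, was at 11.7 TPM in M and 34.1 TPM in MR, with a log2 ratio of 1.46. Timmdc1, which acts on the membrane arm, had 1.45, and Tmem70 had 1.30. Acad9, a further partner of Ndufaf1, was at 11.2 and 16.0 TPM with a log2 ratio of 0.48. Nubpl, which delivers iron-sulfur clusters to complex I, was at 6.59 and 13.0 TPM, a log2 ratio of 0.88, and Foxred1 had 0.69, Tmem186 0.31 and Dmac2 0.17. The remaining 4 were lower in MR. Dmac1, which acts on the distal membrane arm, was at 88.1 TPM in M and 49.0 TPM in MR, with a log2 ratio of -0.83, and Tmem126b had -0.31, Sfxn4 -0.27 and Lyrm2 -0.26. Within the group that builds the membrane arm with Ndufaf1, log2 ratios therefore ranged from -0.31 (Tmem126b) to 1.46 (Ecsit).

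Other enzymes that reduce ubiquinone, and the complexes that follow complex I in the chain, were also mostly higher in MR. Of 9 alternative quinone reducers with a value, 8 were higher and 5 (55.6%) had a log2 ratio above 1, with a median of 1.20. Of protein-coding genes, 59.6% were higher in MR and 19.2% were above 1. Etfdh, which passes on electrons from fatty acid oxidation, had the highest, 22.3 TPM in M and 87.8 TPM in MR, with a log2 ratio of 1.93. Sqor, which oxidises sulfide, had the lowest, 40.04 and 30.3 TPM, with a log2 ratio of -0.39. Of 38 genes of complexes III to V that reached 1 TPM in either library, 37 were higher and 32 (84.2%) had a log2 ratio above 1, with a median of 1.33, above the 1.02 of the Nduf genes. In that list Cox7a1, a subunit isoform of cytochrome c oxidase, had the highest log2 ratio, 2.90, from 4.80 TPM in M to 42.1 TPM in MR. Cox6b2, an isoform known from testis, had the lowest, -0.56, at 2.34 and 1.26 TPM. The mitochondrial ribosomal protein genes, which are needed to translate the mitochondrially encoded subunits, had a lower median of 0.65. Of 73 with a value, 65 (89.0%) were higher in MR, and ratios ranged from -0.89 for Mrps17 to 2.28 for Mrps35. A log2 ratio above 1 was found in 14 (19.2%), no larger a share than the 19.2% of protein-coding genes. The differences between these lists were not tested, since each condition had 1 library.

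**Figure D4:**
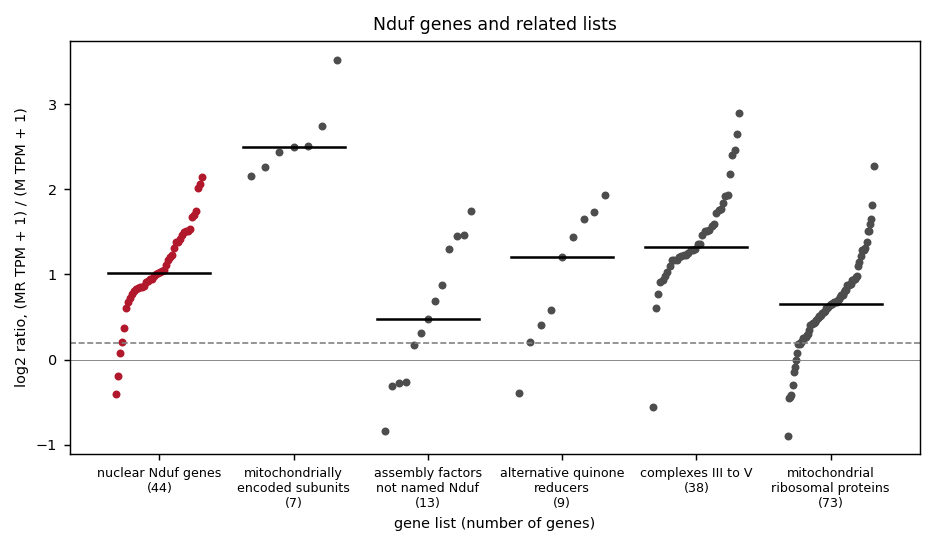
Log2 ratio of MR to M of each gene (points) in the Nduf genes and 5 related lists, with the number of genes in brackets, the list median (black bar) and the median of protein-coding genes at 0.19 (dashed line). Medians are 1.02 for the Nduf genes, 2.49 for the mitochondrially encoded subunits, 0.48 for the other assembly factors, 1.20 for the alternative quinone reducers, 1.33 for complexes III to V and 0.65 for the mitochondrial ribosomal proteins.

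The counts above 1 depended on how the libraries were scaled. Median-of-ratios scaling shifted the median of protein-coding genes by -0.16, to 0.04. It left 17 Nduf genes (38.6%) above 1, beside 16.3% of protein-coding genes, and 41 Nduf genes higher in MR. When mitochondrial genes and the top 20 genes of each library by abundance were taken out, that median shifted by -0.10. With these left out, 18 Nduf genes (40.9%) were above 1, beside 17.7% of protein-coding genes. In FPKM, 19 (43.2%) were above 1, beside 14.0% of protein-coding genes. In coverage per aligned Gb 22 (50%) were, beside 14.6%, with 39 of the 44 genes higher in MR, the fewest of any setting. Of the 24 genes, 16 had a log2 ratio above 1 in all 6 settings of unit, scaling and pseudocount. The distance of the Nduf median from the protein-coding median was 0.82 to 0.85 in every setting tried. Relative to the protein-coding median of the same setting, 41 of the 44 genes were above it in TPM and under both rescalings, and 37 in coverage.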

How the data were processed

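The authors removed adaptors with Trim Galore and aligned the paired reads, of 150 bases, to mm10 with HISAT2. The authors then ran StringTie on the GENCODE vM27 annotation, whose positions are on GRCm39. FastQC and SAMtools are also named in the submitters' processing notes, without versions. The deposited tables list coverage (signal, the mean read depth per base, not scaled for library size), FPKM and TPM per entry, and the authors' TPM is scaled so that the entries named STRG, the loci assembled from the reads, sum to 1000000.

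Only these loci were used, 19422 in M and 19922 in MR. Each went to the gene of GENCODE vM21 (GRCm38) that had the most exon bases inside the locus on the same strand, with a minimum of 50, and 843 and 858 loci without a strand were set aside. Loci that held 50% or more of the exon bases of a further coding gene were called shared. TPM was summed per gene, 1 was added, and genes that reached 1 TPM in M or MR were kept. Called means a log2 ratio above 1 or below -1. Read pairs were estimated from FPKM, aligned bases, 300 aligned bases per pair and the shortest coding transcript, and the Wilson interval of the MR share of pairs, at 95%, was turned into an interval of the log2 ratio, so that precision is set by the depth of 3.63 and 2.98 Gb. Aligned bases came from the commonest quotient of coverage and FPKM, which 38.8% of the entries with an FPKM above 5 in M and 41.0% in MR had.

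All Nduf genes may be named; of the other lists, the genes with the highest and the lowest ratio, all mitochondrially encoded subunits and all other assembly factors. Head-to-head partners, markers and the GABPA match lie outside this rule and were named after their values were seen. Genes of complexes III to V and the mitochondrial ribosomal proteins were listed by symbol, which gave 42 and 78 genes (Atp5o has more than 1 entry), of which 38 and 73 had a value and reached 1 TPM; Cox4i2, at 0.95 TPM in M and 0 in MR, did not reach it. The genes and lists were chosen with earlier results of these data known. The assignment was run on simulated loci, each made from the strand and nearly the full span of a vM21 gene. Joint, partial and strandless loci were not simulated, so that this run does not cover them. Promoters came from RefSeq on GRCm38.p6, matched by symbol; for 37 of the 40 matched genes the last 30 bases were found in a vM21 transcript of the gene. The software was matplotlib 3.10.9, scipy 1.17.1, pandas 2.3.3 and numpy 2.4.6 in Python 3.11.15. The entries with gene names were not used. The counts and medians include 1 gene that is not reported here by itself or drawn in the plots by gene and by role.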

Additional observations from a re-analysis of the deposited data

Results flagged for a closer look

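Outside the 46 protein-coding genes, 5 vM21 symbols that begin with Nduf are not protein-coding, and 4 of them had assembled loci with a signal. They are listed because they lie outside the comparison, which used protein-coding genes only. Ndufb1-ps had a locus on its own strand of chromosome 12 with 200 TPM in M and 302 TPM in MR. Its log2 ratio was 0.59 and its level was like that of the subunits. In vM21 it is annotated as a noncoding RNA from a bidirectional promoter. The role list planned here, however, counts Ndufb1-ps with the accessory subunits of the distal membrane arm, so that the values of that group leave it out. The other signals were loci without a strand over pseudogenes. Ndufab1-ps was at 16.6 TPM in M and 46.2 TPM in MR, a log2 ratio of 1.42, beside 1.75 for Ndufab1. Ndufb4c was at 22.0 TPM in M and 29.4 TPM in MR, a log2 ratio of 0.41, beside 1.22 for Ndufb4. Ndufs6b had no locus in M and 3.71 TPM in MR. Whether the reads of the loci without a strand came from the pseudogene or from the coding gene was not tested.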

How the results depend on the processing

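Of 155 alternative values of medians and counts, 149 stayed within set limits and 6 did not. For medians the limits were the 95% order-statistic interval of the list's median over its genes. For the 3 N module and 4 Q module core genes, too few for 95%, they were the lowest and highest ratio. For counts the limit was 1.5 times the count. Genes are not replicates, and several settings left most values as they were, so that the number that stayed describes these settings only. With median-of-ratios scaling the median log2 ratio was 0.86 for the Nduf genes, 0.74 for the proximal membrane arm, 1.16 for complexes III to V and 0.49 for the mitochondrial ribosomal proteins, since this scaling lowers all ratios. A log2 threshold of 2 left 3 Nduf genes above it, Ndufs1, Ndufv1 and Ndufaf4. The share of protein-coding genes above 2 is not given here. In coverage per aligned Gb, 1 gene, Ndufa12, was below -1. Of 482 alternative values of single genes 457 stayed within the counting interval of the gene, 24 lay outside it, and 1 more, Ndufs4, went from just above 1 to -0.13 in coverage. Among genes below a log2 ratio of 1, Ndufa12 (-2.59) and Ndufs8 (-0.01) also changed sign in coverage, and Ndufa2 (-0.09) did so with median-of-ratios scaling. The cause was not tested. The pseudocount of 0.1, the filters, loci without a strand, 1 exon base and the longest locus left 24 Nduf genes above 1. The share of protein-coding genes in these settings was 17.4% to 21.2%. Genes with loci of their own in both libraries left 23 of 43, beside 14.9% of protein-coding genes. Leaving out a library was not possible with 1 per condition. No paired analysis was possible because each condition has 1 library. Depth limits the assembly factors most, with as few as 47 estimated read pairs.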
